A study of Mus musculus with 2 samples.

Results

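The genes described are the mitochondrial carriers of the Slc25a family and the protein import genes of the Timm and Tomm families, which encode subunits and chaperones of the translocases in the inner and the outer mitochondrial membrane. Every gene whose symbol in the platform annotation begins with Slc25a, Timm or Tomm and a digit was taken, using probe sets that name 1 gene. This gave 68 of the 19503 genes with a value, made up of 45 Slc25a genes, 14 Timm genes and 9 Tomm genes. The rule used symbols and no measured value, but it was set with earlier results of these data known.

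The 2 samples were prepared from mouse cerebellum of postnatal day 7. Both samples came from Tg(Pcp2-L10a-Egfp) mice, which express an EGFP-tagged ribosomal protein L10a from the Purkinje cell promoter of Pcp2. In TRAP, or translating ribosome affinity purification, antibodies against the fluorescent tag pull down the tagged ribosomes with the mRNA they carry; this bound RNA is the TRAP sample and the RNA left behind by the beads is the unbound sample. Cerebella were pooled before homogenisation, no treatment was given, and each fraction was hybridised to 1 array. The unbound sample is not RNA of non-Purkinje cells, because Purkinje cell RNA that escaped the beads remains in it. No fraction was replicated. A test was therefore not possible, no difference has an error between preparations, and genes are described by size, with 2-fold (a difference of 1 on the log2 scale) as the mark. Fewer cells of a type and less RNA per cell cannot be told apart in such samples.

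Nearly all mitochondrial proteins are encoded in the nucleus and made on ribosomes of the cytosol. The TOM complex of the outer membrane passes them inward; precursors with a presequence then go through the TIM23 complex to the matrix, whereas carriers are escorted across the intermembrane space by the small TIM chaperones and inserted into the inner membrane by the TIM22 complex. The carriers themselves exchange ADP, ATP, phosphate, carboxylates, amino acids, cofactors and iron across the inner membrane. Purkinje cells are large neurons that fire continuously and have a high demand for mitochondrial ATP and calcium handling.

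All expression values are on the log2 scale, and each difference is the TRAP value minus the unbound value. Of 14 Purkinje cell markers measured, 14 were higher in TRAP, and 7 passed 2-fold; they ran from Pcp4 (0.49) to Gng13 (3.17), with a median of 1.02. Pcp2, whose promoter drives the tag, read 12.98 in TRAP and 11.65 in unbound. Of 12 granule cell markers, 11 passed 2-fold toward unbound, and the list ran from Cbln3 (-3.05) to Barhl1 (-0.91). The same held for 9 of 11 astroglia markers, from Gfap (-3.92) to Aldoc (0.93), for 9 of 9 oligodendrocyte markers, from Enpp6 (-3.05) to Mog (-1.26), and for 9 of 9 cell cycle genes, from Ccnb2 (-3.98) to Pcna (-1.05). Of 11 erythroid genes listed, 3 had a value, and they ran from Alas2 (-0.04) to Epor (2.18); Alas2 and Klf1 were below the floor of 7.079 (the median of all probe set values) on both arrays and Epor on the unbound array (6.54), so that these differences are uncertain.

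The import genes stood higher in TRAP than the carriers did. Of 23 Timm and Tomm genes, 22 were higher in TRAP, 5 passed 2-fold, and their median difference was 0.67, a 1.59-fold difference. Of 45 Slc25a genes, 29 were higher in TRAP and 16 in unbound, 1 was at least 2-fold higher in TRAP and 2 in unbound, and the median was 0.13. Over all 19503 genes the median was 0.10. In all, 6 of the 68 members passed 2-fold toward TRAP, as did 4.58% of all genes, and 2 passed it toward unbound, as did 11.0% of all genes. Among the 9734 genes whose mean over both arrays lay above a floor of 7.079 (the median over every probe set on the 2 arrays), the median difference was -0.10. In that range the 34 Slc25a genes had a median of 0.11, the 13 Timm genes 0.73 and the 8 Tomm genes 0.52. There, 8.10% of all genes passed 2-fold toward TRAP and 16.8% toward unbound, against 6 and 2 of 55 members. The 22 of 23 import genes higher in TRAP compare with 57.6% of all genes. Among genes with a mean above the floor, 20 of 21 import genes and 20 of 34 Slc25a genes were higher in TRAP, against 45.0% of all genes. The difference between the families could not be tested.

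**Figure D1:**
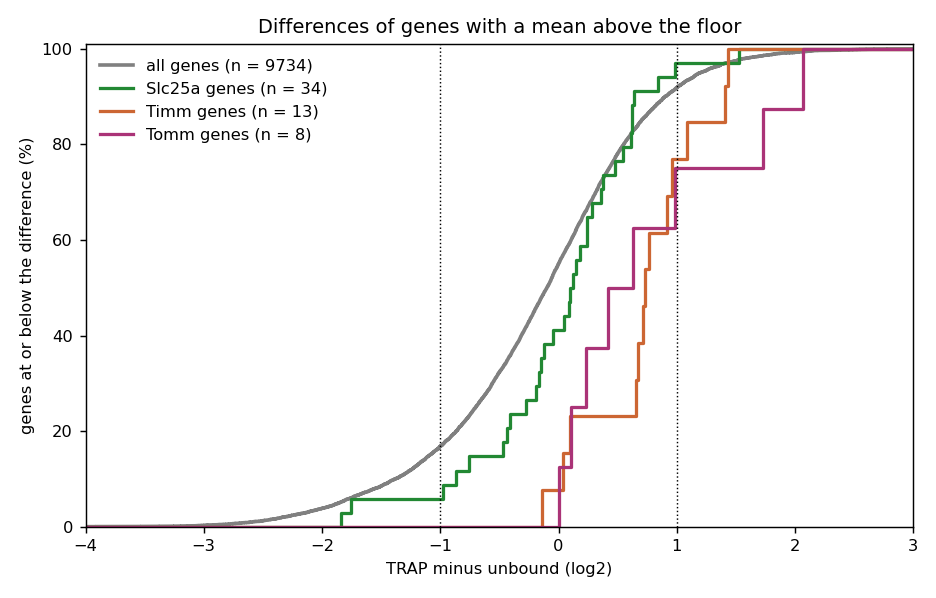
Cumulative share of genes (%, vertical axis) by difference between the TRAP and unbound arrays (log2, horizontal axis), for all 9734 genes with a mean above the floor and for the 34 Slc25a, 13 Timm and 8 Tomm genes among them; dotted lines mark 2-fold. The Slc25a curve lies near that of all genes in its upper part, whereas the Timm and Tomm curves lie to the right of it, with medians of 0.73 and 0.52.

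These families can be set beside other nuclear-encoded mitochondrial genes. The 75 mitochondrial ribosomal protein genes had a median difference of 0.86, with 73 higher in TRAP. The 43 genes of complex I subunits and assembly factors had a median of 1.13, with 42 higher in TRAP. All of these had a mean above the floor, where 45.0% of all genes were higher in TRAP. The import genes, at 0.67, thus lay nearer to those groups than the carriers did, at 0.13; these distances were not tested.

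The 5 small TIM chaperones with values above the floor are introduced by the DNA before their start sites, because all 5 were higher in TRAP by 0.92 to 1.43. The sequences are printed from the RefSeq promoter table (GRCm38.p6) as the 250 bases before the annotated start, 5′ to 3′ on the gene's strand. The windows are chr2:84826771-84827020 on the + strand for Timm10, chr10:80900970-80901219 on the - strand for Timm13, chr12:71136676-71136925 on the - strand for Timm9, chr9:50603651-50603900 on the + strand for Timm8b and chrX:134541671-134541920 on the - strand for Timm8a1. Slc25a18, the member with the largest difference toward unbound, is added for contrast, from chr6:120773518-120773767 on the + strand. Capitals mark every match to 3 motifs searched on both strands: the ETS motif CCGGAAG, recognised by nuclear respiratory factor 2 (GABP), the nuclear respiratory factor 1 motif GCATGCGC, and the YY1 motif AAGATGGCG.
Timm10: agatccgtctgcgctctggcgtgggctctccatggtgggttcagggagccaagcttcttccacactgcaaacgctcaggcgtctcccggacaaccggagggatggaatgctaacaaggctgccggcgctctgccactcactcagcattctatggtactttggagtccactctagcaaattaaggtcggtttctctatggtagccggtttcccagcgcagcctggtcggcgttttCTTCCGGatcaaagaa
Timm13: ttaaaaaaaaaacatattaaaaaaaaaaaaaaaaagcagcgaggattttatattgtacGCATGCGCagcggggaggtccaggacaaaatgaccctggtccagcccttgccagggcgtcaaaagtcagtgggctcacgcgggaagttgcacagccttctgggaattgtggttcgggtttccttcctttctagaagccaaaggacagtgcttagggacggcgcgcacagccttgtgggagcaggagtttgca
Timm9: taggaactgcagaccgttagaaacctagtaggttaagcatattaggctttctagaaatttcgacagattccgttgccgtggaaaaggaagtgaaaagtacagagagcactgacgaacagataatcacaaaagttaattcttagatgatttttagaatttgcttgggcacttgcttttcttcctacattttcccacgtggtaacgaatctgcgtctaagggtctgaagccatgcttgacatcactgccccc
Timm8b: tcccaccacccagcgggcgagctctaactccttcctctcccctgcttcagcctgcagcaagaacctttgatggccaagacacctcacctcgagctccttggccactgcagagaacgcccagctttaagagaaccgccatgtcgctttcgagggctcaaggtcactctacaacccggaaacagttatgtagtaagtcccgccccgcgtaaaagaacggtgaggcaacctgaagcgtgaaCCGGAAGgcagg
Timm8a1: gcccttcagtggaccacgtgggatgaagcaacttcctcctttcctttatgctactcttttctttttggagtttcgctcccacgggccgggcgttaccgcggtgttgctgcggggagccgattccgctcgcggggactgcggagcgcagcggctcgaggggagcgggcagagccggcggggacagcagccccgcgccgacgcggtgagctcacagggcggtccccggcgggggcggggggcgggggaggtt
Slc25a18: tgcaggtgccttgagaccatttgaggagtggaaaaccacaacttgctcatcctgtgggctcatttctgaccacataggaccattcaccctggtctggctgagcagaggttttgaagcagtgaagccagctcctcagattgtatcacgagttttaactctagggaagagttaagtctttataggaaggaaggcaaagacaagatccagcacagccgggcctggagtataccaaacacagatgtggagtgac
The ETS motif stands in Timm10 from position -16 and in Timm8b from position -12, counted back from the start. The nuclear respiratory factor 1 letters stand in Timm13 from position -192. None of the 3 motifs was found in the windows of Timm9, Timm8a1 and Slc25a18. The Slc25a18 window holds 2 CpG dinucleotides and the Timm8a1 window 29, with Timm9, Timm13, Timm8b and Timm10 between them at 8, 11, 14 and 15. The median window among all measured genes holds 11. Slc25a53, the other member at least 2-fold higher in unbound, holds 12 in each of its 2 windows. The low count of Slc25a18 was thus not shared by both members displaced toward unbound.

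Promoter windows were found for 56 of the 68 genes, 68 windows in all. The 12 genes without one include Tomm7, Tomm40l and Slc25a26, the 3 members with the largest differences toward TRAP, so the motif counts leave these out. The ETS motif was present in 15 of these 68 windows (22.1%), compared with 9.41% of the 18787 windows of all measured genes and 6.91% of the 32851 windows in the table. It was present in 5 of 14 Timm windows, 4 of 8 Tomm windows and 6 of 46 Slc25a windows. The windows of Tomm34 overlap and share a site, which is thus counted in both. By gene, the motif was present in 14 of 56 members, against 1637 of 15285 measured genes. These were 5 of 13 Timm, 3 of 7 Tomm and 6 of 36 Slc25a genes. Besides Timm10 and Timm8b, the Timm genes with the ETS motif were Timm23, Timm29 and Timm8a2, and the Tomm genes were Tomm22, Tomm34, with 2 windows, and Tomm70a. Of these, Timm29, Timm8a2, Tomm34 and Tomm70a had differences between -0.14 and 0.11, and Timm23 and Tomm22 differences of 0.67 and 0.63. The nuclear respiratory factor 1 motif was present in 3 of the 68 windows (4.41%), those of Timm13, Slc25a31 and Slc25a54, against 3.16% for all measured genes. The YY1 motif was in none of the 68 windows, against 0.772%. The estrogen-related receptor motif AAGGTCA was in 2 windows (2.94%, against 3.39%), CCAAT in 28 (41.2%, against 34.5%) and the TATA box letters TATAAA in 3 (4.41%, against 10.6%). A match is a run of letters and not evidence of binding.

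The small TIM chaperones of the intermembrane space, zinc-finger-like proteins that keep carrier precursors soluble, were all higher in TRAP where they were measured above the floor. Timm10 read 9.82 in TRAP against 8.39 in unbound, 2.70-fold higher. Its partner Timm9, with which it forms the ring-shaped chaperone of carriers, read 9.20 and 8.11, 2.13-fold. Timm13 read 10.25 and 8.84, 2.66-fold. Timm8b read 10.71 and 9.75, a difference of 0.96, just short of 2-fold. Timm8a1, orthologue of the gene mutated in deafness-dystonia syndrome and partner of Timm13, read 9.85 and 8.93, a difference of 0.92. The 5 genes thus spanned 0.92 to 1.43, with a median of 1.09. The paralogue Timm8a2 read 4.37 and 4.27, below the floor on both arrays, and its difference of 0.10 was -0.087 after quantile normalization.

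The Timm genes of the TIM22 translocase, which receives carriers from these chaperones, had smaller differences. Timm22, its channel, read 7.83 in TRAP and 7.79 in unbound, a difference of 0.03 that was 0.40 after quantile normalization and 0.23 with the loess trend removed. Timm29, another subunit, read 8.51 and 8.64, a difference of -0.14 that was 0.20 after subtraction of the array medians and 0.12 after quantile normalization. Agk, a further TIM22 subunit counted here with the other import genes, was higher in TRAP at 9.64 against 9.03 (0.60). It was singled out after its value was seen.

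All 6 Timm genes of the TIM23 complex were higher in TRAP, as were 57.6% of all genes. The 6 had means above the floor, where 45.0% of all genes were higher in TRAP. None of the 6 passed 2-fold (4.58% of all genes), and their median was 0.69. Genes of its import motor, whose symbols do not begin with Timm, are given below with the other import genes. Timm23, the core channel subunit, read 12.07 and 11.39, a difference of 0.67. Timm50, the presequence receptor, read 9.71 and 8.98 (0.73), and Timm44, which tethers the import motor to the channel, 9.69 and 9.03 (0.65). Timm21, which links the complex to TOM and the respiratory chain, read 9.20 and 8.43 (0.77). Of the paralogues of the second channel subunit, Timm17a read 11.68 and 10.97, a difference of 0.72, and Timm17b read 9.57 and 9.48, a difference of 0.10. With the array medians subtracted, 4 of the 6 reached 2-fold, beside 10.1% of all genes, as every gene then moves by 0.33 toward TRAP.

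The Tomm genes held the largest difference of any member. Tomm7, a small subunit that regulates assembly of the TOM complex and helps retain the kinase PINK1 at the outer membrane, read 10.98 in TRAP against 8.92 in unbound, 4.19-fold higher. Tomm40l, a paralogue of the import pore, read 10.49 and 8.77, 3.31-fold. The pore gene Tomm40 itself read 10.94 and 9.95, a difference of 0.99, just under 2-fold. The receptor Tomm22 read 9.87 and 9.24 (0.63), and the small subunit Tomm6 10.47 and 10.05 (0.42). The other receptors differed little: Tomm20, which binds presequences, read 9.96 and 9.73 (0.23), and Tomm70a, the receptor for carrier precursors, 10.89 and 10.79 (0.11). Tomm34, a cytosolic co-chaperone rather than a pore component, read 9.31 on both arrays, with a difference of 0.01. Tomm20l, at 6.14 and 5.67, was below the floor on both arrays.

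**Figure D2:**
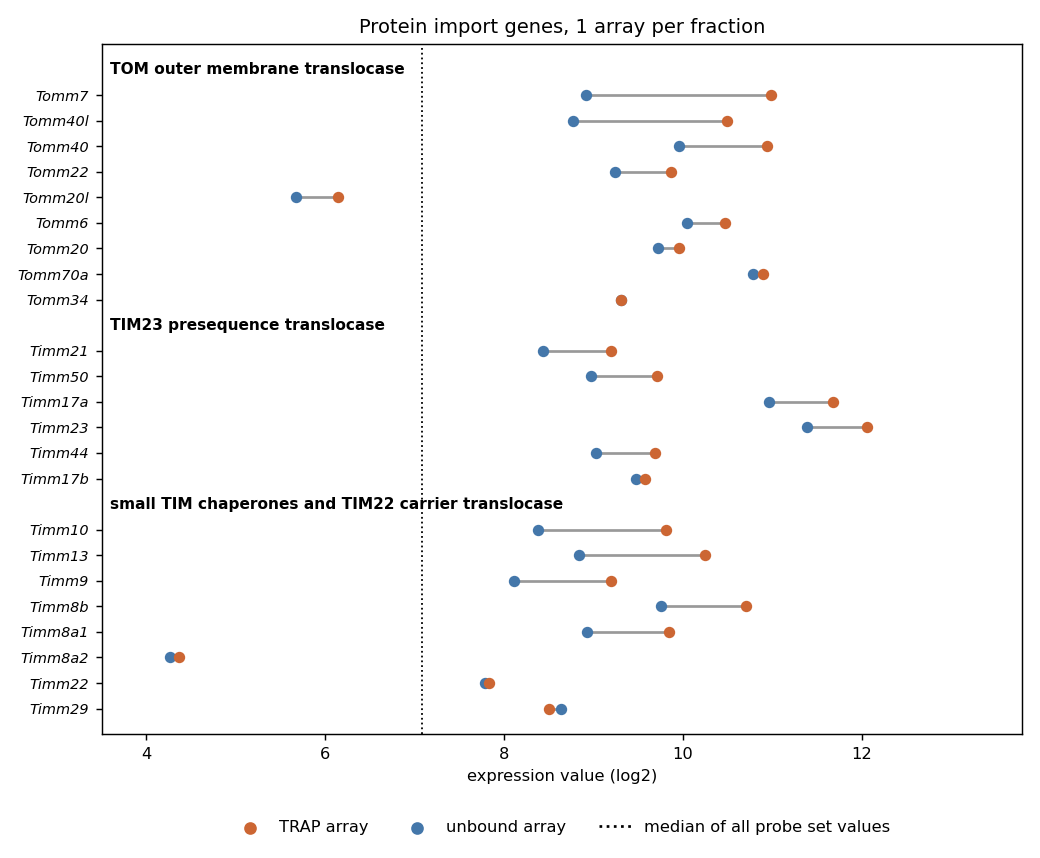
Expression values (log2, horizontal axis) of the 23 protein import genes on the TRAP array (orange) and the unbound array (blue), with 1 array per fraction, grouped by complex; the dotted line is the median of all probe set values, 7.079. The widest gaps belong to Tomm7 (2.07), Tomm40l (1.73) and the small TIM genes Timm10 (1.43) and Timm13 (1.41), and Timm29 is the one gene with the unbound point to the right.

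Other genes that act with the translocases or in related steps followed the same direction in most cases. The list covers the import motor, presequence processing and membrane insertion, and also related genes such as Hspd1, Hspe1, Timmdc1, Chchd4 and Gfer. Of its 22 measured genes, 19 were higher in TRAP (57.6% of all genes). All 22 had a mean above the floor, where 45.0% of all genes were higher in TRAP. Toward TRAP 6 passed 2-fold (4.58% of all genes), and the median was 0.77. The outer membrane assembly gene Mtx2 (metaxin 2) read 11.61 and 10.22, 2.61-fold. Hspe1, the chaperonin cofactor of the matrix, read 11.76 and 10.44, 2.51-fold. At the other end Dnajc19, a J-protein of the import motor, read 8.29 and 9.04, a difference of -0.75, and Immp1l, a subunit of the inner membrane peptidase, differed by -0.25 and turned to 0.09 with the array medians subtracted. Pam16, the motor subunit that pairs with J-proteins, read 10.16 and 8.87 (1.28); it was singled out after its value was seen. Of the other motor genes on the list, Grpel1 (1.12), Dnajc15 (1.09) and Hspa9 (0.42) were higher in TRAP. Grpel2 differed by -0.03 and turned to 0.30 with the array medians subtracted. Among the motor genes named here, Dnajc19 alone was lower in TRAP under every scaling. These genes too were named after their values were seen.

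Among the carriers, those for adenine nucleotides and phosphate differed by -0.41 to 0.84, and none passed 2-fold. Slc25a4 and Slc25a5, the ADP/ATP exchangers that export ATP to the cytosol, read 13.07 against 12.95 and 11.93 against 11.84; their differences of 0.12 and 0.09 turned to -0.10 and -0.06 when a loess trend was removed. Slc25a3, the phosphate carrier that supplies ATP synthase, was higher in TRAP at 12.08 against 11.24, a difference of 0.84. The calcium-regulated ATP-Mg/phosphate carriers went in different directions: Slc25a25 read 8.80 and 8.18 (0.62), Slc25a24 7.24 and 7.09 (0.15), and Slc25a23 11.91 and 12.32 (-0.41). Slc25a31 and Slc25a41, at values of 4.34 to 5.22, were below the floor on both arrays. The group's median was 0.14 over 8 genes, and 7 of the 8 were higher in TRAP, as were 57.6% of all genes. Among those with a mean above the floor 5 of 6 were, against 45.0% of all genes. With the loess trend removed, 4 of the 8 were higher in TRAP.

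The carboxylate and amino acid carriers included the member with the largest difference toward unbound. Slc25a18, a mitochondrial glutamate carrier known from astrocytes, read 8.22 in TRAP and 10.06 in unbound, 3.57-fold higher in unbound, while its paralogue Slc25a22 read 10.57 and 10.32, a difference of 0.24. The list of astroglia markers had a mean over 11 genes of 8.45 in TRAP and 10.40 in unbound. Aldoc, on that list, was higher in TRAP (0.93), unlike the other 10. Whether Aldoc marks astroglia in these samples was not tested, and the means include it. Of the 11, 4 (Aqp4 among them) read above the floor on the unbound array only. This direction was not particular to astroglia. Means were also higher in unbound for granule cell (9.02 and 11.04), oligodendrocyte (7.28 and 9.28) and cell cycle genes (7.42 and 9.79). The mean of the Purkinje cell list was higher in TRAP. That of the erythroid list was too, but its means over 3 genes (6.85 and 5.91) lay below the floor, so that this direction is uncertain. The part of any cell type in the value of Slc25a18 was not tested. Slc25a1, the citrate carrier that supplies carbon for fatty acid and sterol synthesis, read 9.23 and 10.21, a difference of -0.98. In the other direction Slc25a11, the oxoglutarate carrier of the malate-aspartate shuttle, read 11.46 and 10.48, a difference of 0.98. Of its shuttle partners, the aspartate-glutamate carriers, Slc25a12, the form prominent in brain, read 12.38 and 12.34 (0.05), and Slc25a13 read 7.56 and 6.94 (0.62), with its unbound value below the floor. The dicarboxylate carrier Slc25a10 read 9.05 and 8.44 (0.61). The remaining 7 genes, among them the carriers for ornithine, glycine, branched-chain amino acids and carnitine, ran from -0.12 (Slc25a44) to 0.61 (Slc25a29). Of these, Slc25a2 and Slc25a21 were below the floor on both arrays and Slc25a29 on the unbound array (6.63), so that their differences are uncertain. Over the 14 genes the median was 0.25.

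Carriers of cofactors and pyrimidine nucleotides were divided evenly, 5 higher in each fraction, with a median of -0.03. Slc25a26, which brings the methyl donor S-adenosylmethionine into mitochondria, was the one carrier at least 2-fold higher in TRAP, at 9.19 against 7.66, 2.89-fold. Slc25a33, a pyrimidine nucleotide carrier, read 8.58 and 7.94 (0.64), and its paralogue Slc25a36 read 9.81 and 9.96 (-0.15). At the lower end Slc25a17, a carrier of the peroxisome rather than the mitochondrion, read 9.09 and 9.85 (-0.76), and Slc25a16, linked to coenzyme A, 9.26 and 9.73 (-0.47). Slc25a51, the mitochondrial NAD carrier, differed by -0.44, and Slc25a39 and Slc25a40, linked to glutathione import, by -0.28 and 0.19. Slc25a39 was at 0.05 with the array medians subtracted. Slc25a42 and Slc25a32, linked to coenzyme A and folate, differed by 0.36 and 0.09.

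The carriers related to uncoupling proteins and the iron carrier were level or higher in unbound. Slc25a30 read 7.37 and 8.23 (-0.87), Slc25a27 8.89 and 9.07 (-0.19) and Slc25a14 7.17 and 7.34 (-0.16); the latter pair lay above 0 after subtraction of the array medians (0.14 and 0.17), and Slc25a14 also after quantile normalization (0.19). Slc25a28, the mitoferrin of tissues outside the erythroid lineage, read 8.77 and 8.82 (-0.05) and was positive under each of the 3 other scalings. Of the 9 carriers of other or unsettled substrate, Slc25a53 read 7.07 in TRAP, just below the floor, and 8.83 in unbound, 3.38-fold higher in unbound, so that its fold is uncertain. Slc25a46, an outer membrane protein of mitochondrial dynamics whose human orthologue is mutated in optic atrophy and cerebellar hypoplasia, read 11.26 and 10.98 (0.28). Slc25a35 and Slc25a43 differed by 0.54 and 0.51, and Slc25a34 and Slc25a45 by -0.21 and -0.19; of these 4, Slc25a35 alone was above the floor, and the latter pair lay above 0 (0.12 and 0.14) after subtraction of the array medians. Slc25a47, Slc25a48 and Slc25a54, with differences of 0.49, 0.29 and 0.06, were below the floor on both arrays, and that of Slc25a54 was -0.11 after quantile normalization.

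**Figure D3:**
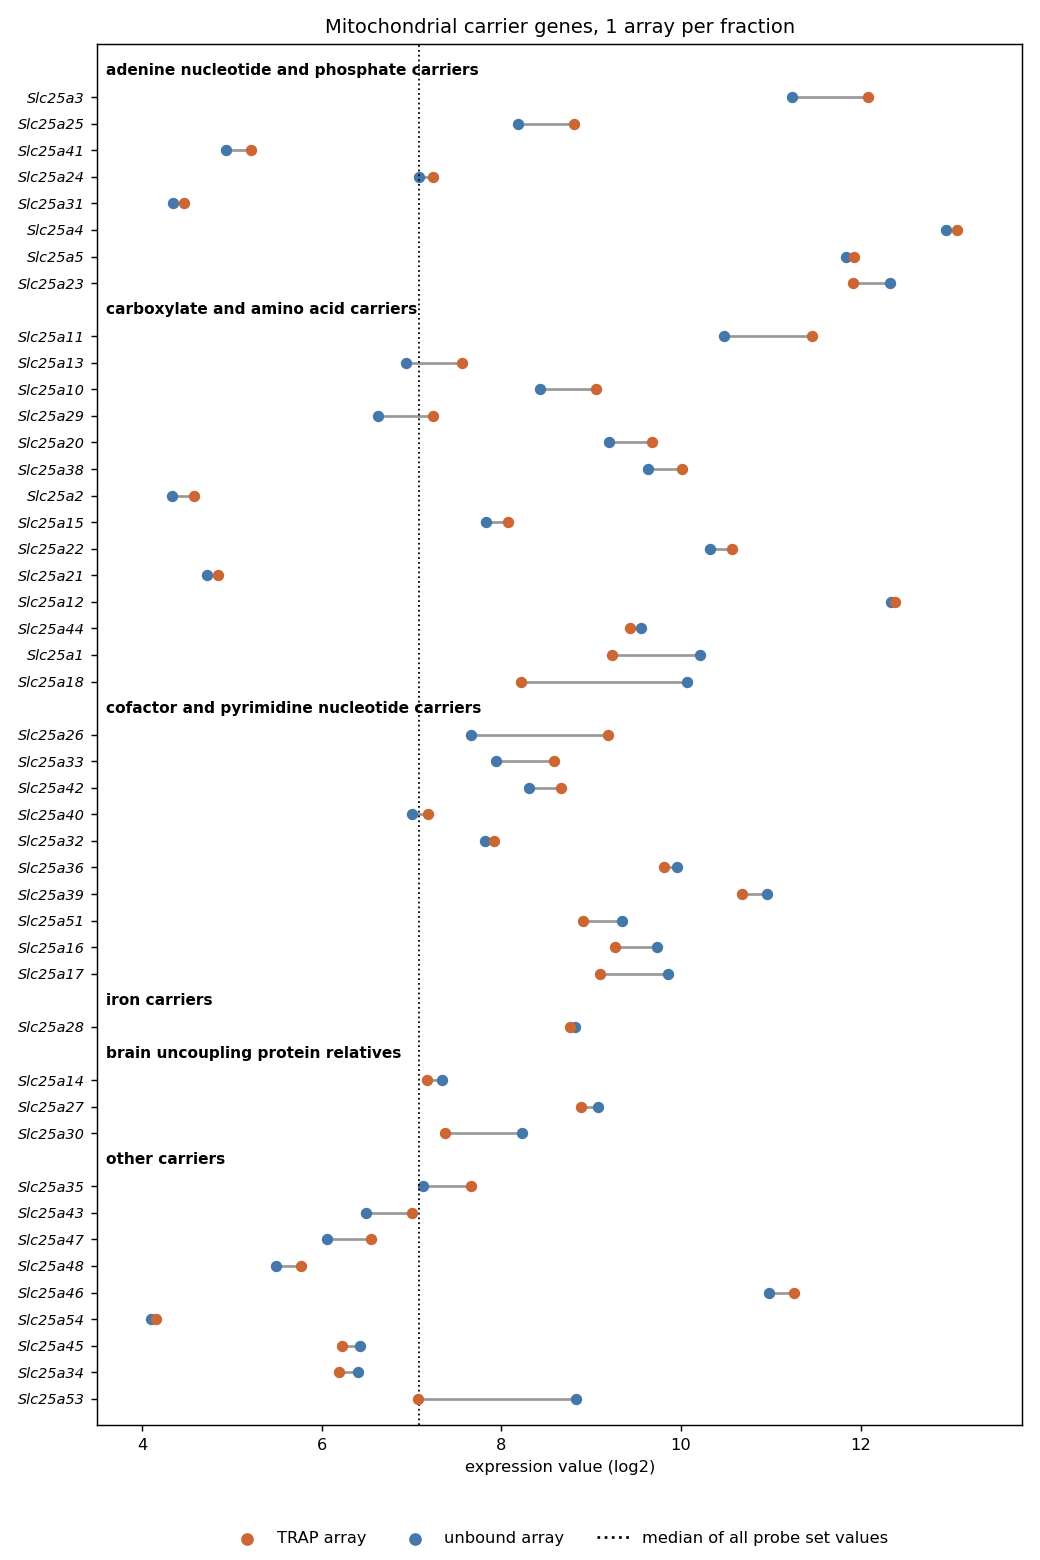
Expression values (log2, horizontal axis) of the 45 Slc25a genes on the TRAP array (orange) and the unbound array (blue), with 1 array per fraction, grouped by substrate; the dotted line is the median of all probe set values, 7.079. Most pairs of points lie close together, while Slc25a18 (-1.84) and Slc25a53 (-1.76) are displaced toward unbound and Slc25a26 (1.53) toward TRAP.

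Of the 68 members, 12 had values below the floor on both arrays, between 4.10 and 7.01, and their differences ran from -0.21 to 0.51. A further 4 passed it on 1 array, and 52 on both. Differences between paralogues were set beside the disagreement of probe sets that target the same gene. Of 415 genes with exactly 2 probe sets and a mean above the floor, 15 gave the same difference on both, and in the other 400 the differences were a median of 0.20 and, at the 90th percentile, 0.78 apart. That measure covers probe sets on the same 2 arrays and contains no variation between preparations. Of 14 paralogue pairs compared, 3 were farther apart than 0.78 as deposited: Slc25a18 and Slc25a22 (2.08), Slc25a23 and Slc25a25 (1.03), and Slc25a33 and Slc25a36 (0.79). As deposited, the gaps between Tomm40 and Tomm40l (0.74), Timm17a and Timm17b (0.62), Slc25a12 and Slc25a13 (0.57), and Slc25a23 and Slc25a24 (0.56) were smaller. After quantile normalization, and likewise with the loess trend removed, 6 pairs were past 0.78: these 3, Slc25a12 and Slc25a13 (0.99 and 0.91), Slc25a23 and Slc25a24 (1.00 and 0.87), and Tomm40 and Tomm40l (0.85 and 0.81). The limit of 0.78 was not recomputed for those scalings. Slc25a4 and Slc25a5 were 0.03 apart, and Timm8a1 and Timm8b 0.04.

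Of the members, 6 have several probe sets. Those of Timm23 gave differences between 0.54 and 0.82, and 2 of its 4 probe sets hold the same values on both arrays. Those of Slc25a36 gave -0.31 and 0.01, those of Slc25a40 0.16 and 0.21, and those of Tomm20 0.21 and 0.25. The 3 probe sets of Slc25a5 gave 0.086 to 0.093, and both of Timm8a1 gave 0.92 at different levels. Probe sets that share probes, or match near-identical gene copies, are not independent, and for genes with such copies the source of the signal is uncertain.

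Other transport proteins of mitochondria went in both directions, from -1.91 to 1.38. Of 21 such genes measured, 11 were higher in TRAP (57.6% of all genes) and 10 in unbound, with a median of 0.00. Toward TRAP 2 passed 2-fold (4.58% of all genes), and toward unbound 2 (11.0%). Sfxn4, a sideroflexin, read 8.75 and 7.37, 2.60-fold higher in TRAP, and Micu3, a regulator of the calcium uniporter prominent in neurons, 10.92 and 9.86, 2.08-fold. Mcu, the uniporter pore, read 9.64 and 10.33, a difference of -0.69; it was singled out after its value was seen. Cpt1a and Cpt2, which load and unload the carnitine that carries fatty acids into mitochondria, were 3.76-fold and 2.21-fold higher in unbound, with TRAP values of 6.30 and 6.57 below the floor, so that both folds are uncertain, and Cpt2 fell short of 2-fold with the array medians subtracted (-0.81). The carnitine carrier Slc25a20, which works between them, read 9.67 and 9.20, a difference of 0.48.

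The counts of members depended on the scaling of the arrays and on the mark, and so did those of all genes. With the array medians subtracted, 15 members passed 2-fold toward TRAP (10.1% of all genes) and 2 toward unbound (6.80%). After quantile normalization the counts were 7 (6.67% of all genes) and 2 (8.60%), and with the loess trend removed 6 (5.20%) and 2 (10.1%). Among members whose mean was above the 75th percentile of all values, 4 passed 2-fold toward TRAP (9.56% of all such genes) and 1 toward unbound (10.9%). With the mark at 1.5-fold, 22 members were higher in TRAP (12.5% of all genes) and 5 in unbound (19.5%), and with the mark at 4-fold 1 (0.400%) and 0 (2.37%). Under the 3 other scalings the median of the 14 Timm genes was 1.05, 0.83 and 0.74 and that of the 45 Slc25a genes 0.46, 0.17 and 0.06, beside 0.43, 0.06 and 0.00 for all genes.

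**Figure D4:**
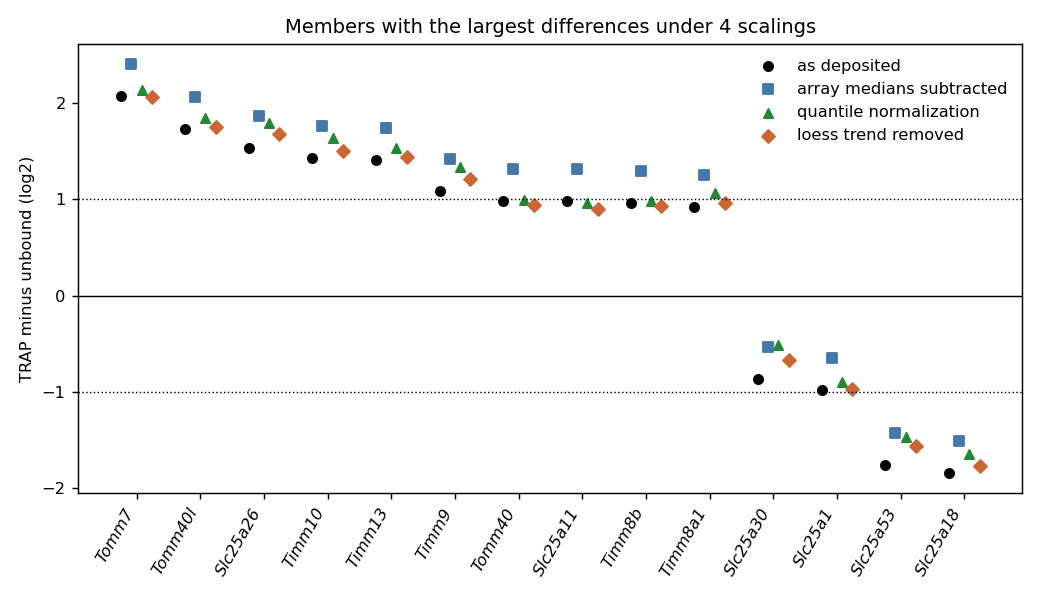
Difference between the TRAP and unbound arrays (log2, vertical axis) of the 14 members with a difference of at least 0.85 in size, as deposited and under 3 other scalings of the arrays; dotted lines mark 2-fold. The sign of each of these genes is the same under the 4 scalings, while Tomm40, Slc25a11, Timm8b and Timm8a1 pass 2-fold with the array medians subtracted, and Timm8a1 also after quantile normalization (1.06).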

How the data were processed

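The authors deposited log2 values, 1 for each probe set on each array. The submitters' processing notes name Affymetrix Power Tools; its version, background correction, normalization and summary method are not given there. The base of the logarithm is unstated and was taken as log2 from the range of the values. Array medians were 6.92 (TRAP) and 7.25 (unbound).

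Of 22097 probe sets, the platform annotation names 1 gene for 20999, several for 91 (left out) and none for 1007. Probe sets were averaged per gene. All 68 members matched RefSeq genes (GRCm38.p6) by Entrez identifier. Values were used as deposited, with a floor only where one is named, and no test was run. There are no detection calls, and the number of arrays limits the precision.

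Named genes were every member at least 2-fold apart, all Timm and Tomm genes, the ends of each role group or list, and stated paralogues; other members named complete their groups. The 8 lists hold other import genes, other mitochondrial transport genes, and markers of Purkinje, granule, astroglial, oligodendrocyte, dividing and erythroid cells. Mitochondrial ribosomal protein and complex I genes were taken by symbol (Mrpl, Mrps and Nduf), also after results were known. Members, lists and groups were chosen with earlier results of these data known, and the nuclear respiratory factor 1 letters were shortened after a longer form had been searched. Alternatives were 3 scalings (array medians subtracted, quantile normalization, loess with span 0.3), 3 floors, the brightest probe set and other fold thresholds. Scripts (Python 3.11.15, pandas 2.3.3, statsmodels 0.14.6) were tested on simulated data.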

Additional observations from a re-analysis of the deposited data

How the results depend on the processing

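The 8 members at least 2-fold apart kept their direction under the 3 scalings and with the brightest probe set. Of the 68 members, 9 changed sign with the array medians subtracted, 9 after quantile normalization and 8 with the loess trend removed; no change of sign came from the brightest probe set. Subtracting the array medians, which moves every gene by 0.33 toward TRAP, raised the members past 2-fold toward TRAP to 15 (10.1% of all genes), kept 2 toward unbound (6.80%), and gave a median of 0.58 over the members, beside 0.43 over all genes. Quantile normalization gave a median of 0.42. The 1.5-fold mark gave 22 members toward TRAP (12.5%) and 5 toward unbound (19.5%), and the 4-fold mark 1 (0.400%) and 0 (2.37%). With the floor at the 75th percentile of all values, 4 members passed 2-fold toward TRAP (9.56%) and 1 toward unbound (10.9%), because fewer genes were left, and the median of the 18 Slc25a genes left was -0.036, a change of sign from 0.13. No paired analysis was possible because each fraction has 1 array. With 1 array per fraction, no setting shows how far a difference would vary between preparations.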
